A study of Mus musculus with 16 samples.

Results

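Heparan sulfate sulfatases and the core proteins that carry heparan sulfate were followed through RNA of astrocyte ribosomes and of whole striatum. The set held 9 of the 13277 genes listed in the data: the endosulfatases Sulf1 and Sulf2, the glypicans Gpc1, Gpc4, Gpc5 and Gpc6, and the syndecans Sdc2, Sdc3 and Sdc4. The set was picked from measured values, because Sulf1 and Sulf2 had been seen to rise with PMCA in the precipitated fraction of these same libraries. For that contrast, values of the 9 genes are therefore a description with no test. All 8 adult mice carried the RiboTag allele (B6 background) and Aldh1l1-Cre/ERT2 (FVB stock backcrossed to C57BL/6N), so that ribosomes of Aldh1l1-expressing cells, mainly astrocytes, bear a haemagglutinin (HA) tag. The control group, mice Y481, Y482, Y483 and Y485, received an AAV for a control protein. The PMCA group, mice Y486, Y487, Y489 and Y490, received an AAV for hPMCA2w/b, a human plasma membrane calcium pump that lowers calcium signals. Cleared lysate of whole striata was sequenced as the input, and RNA on tagged ribosomes as the immunoprecipitate (IP), so each mouse gave 1 library of each kind and each of the 4 groups held 4 libraries. The Cre driver limits the tag to cells that use Aldh1l1, but markers of other cell types were still read in IP. Which cells the virus reached was not analysed here.

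Heparan sulfate is a sulfated sugar chain built onto core proteins in the Golgi. Glypicans are cores anchored to the outer membrane by a lipid, and syndecans are cores that cross the membrane. The chains hold growth factors and morphogens such as FGFs, Wnts, midkine and pleiotrophin near their receptors, and the pattern of sulfate groups sets which of them bind. Sulf1 and Sulf2 are secreted enzymes that remove 6-O-sulfate from finished chains outside the cell, which can release Wnt ligands and weaken FGF binding. In astrocytes, the glypicans Gpc4 and Gpc6 are known as released signals that promote excitatory synapses.

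RefSeq promoter windows (GRCm38.p6, 250 bases before to 50 after a transcript start) were matched by symbol for 5 of the 9 genes, Sulf2, Sdc4, Sdc3, Gpc5 and Gpc4, with 6 windows in all because Sulf2 has a pair of starts. The windows below belong to Sulf2, the sulfatase with a window, and to the 3 cores with a window whose RNA was most concentrated on astrocyte ribosomes. They lie at chr2:166155634-166155933 on the minus strand (Sulf2), chr2:164443139-164443438 on the minus strand (Sdc4), chr14:115091965-115092264 on the plus strand (Gpc5) and chrX:52164874-52165173 on the minus strand (Gpc4). Each is written 5′ to 3′ along the gene's strand, and capitals mark a GC box, GGGCGG on either strand.
Sulf2: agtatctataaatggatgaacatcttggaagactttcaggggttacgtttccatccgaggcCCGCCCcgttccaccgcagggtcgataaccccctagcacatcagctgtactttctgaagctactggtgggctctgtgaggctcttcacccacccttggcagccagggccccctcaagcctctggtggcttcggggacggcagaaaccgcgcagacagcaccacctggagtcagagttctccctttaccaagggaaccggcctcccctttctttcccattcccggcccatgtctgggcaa
Sdc4: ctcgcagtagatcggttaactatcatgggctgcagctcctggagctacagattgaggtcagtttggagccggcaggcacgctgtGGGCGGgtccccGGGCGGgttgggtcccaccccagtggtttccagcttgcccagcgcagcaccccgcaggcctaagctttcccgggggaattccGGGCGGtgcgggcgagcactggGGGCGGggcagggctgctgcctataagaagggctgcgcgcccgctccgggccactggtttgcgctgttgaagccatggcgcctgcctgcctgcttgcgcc
Gpc5: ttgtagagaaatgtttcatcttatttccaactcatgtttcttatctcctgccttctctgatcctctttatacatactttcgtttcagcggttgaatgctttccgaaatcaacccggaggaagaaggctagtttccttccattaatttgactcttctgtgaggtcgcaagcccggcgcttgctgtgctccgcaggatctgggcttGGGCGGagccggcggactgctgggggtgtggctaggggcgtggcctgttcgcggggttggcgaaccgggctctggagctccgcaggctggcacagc
Gpc4: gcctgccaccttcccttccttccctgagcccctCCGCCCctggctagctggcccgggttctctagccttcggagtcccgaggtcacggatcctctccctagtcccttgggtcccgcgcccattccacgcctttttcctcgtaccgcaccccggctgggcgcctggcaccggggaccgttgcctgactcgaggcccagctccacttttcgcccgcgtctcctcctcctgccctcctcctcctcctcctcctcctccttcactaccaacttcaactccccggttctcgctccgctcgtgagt
Sdc4 held 4 GC boxes in this window, and Sulf2, Gpc5 and Gpc4 held 1 each. A GC box was present in 35.7% of all 32851 RefSeq mouse windows of this length. Of 3 further short motifs searched on both strands, TATAAA occurred once in the Sulf2 window and once in that of Gpc5 (13.6% of all windows hold it), TTGGCA, the core of nuclear factor I sites, once in that of Sulf2 (14.1%), and TGACG, the core of the cAMP response element, in none of these 4 (20.8%). The second Sulf2 window, chr2:166155236-166155535 on the minus strand and not printed here, held none of these motifs. The motifs did not overlap one another in their letters, and a match describes the sequence only.

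The libraries held 198462 to 686343 reads over the listed genes, so 1 read was worth 1.59 to 4.46 CPM (reads scaled to a library's effective size, in parts of 1e6), and several of the 9 genes rest on few reads. As the labels of the fractions have it, the precipitate was rich in astrocyte RNA: each of 12 astrocyte markers was called higher there in both treatments, with median log2 differences from input of 4.05 in control and 3.77 in PMCA mice. Precipitation depleted the markers of striatal projection neurons (9 of 9 tested called lower) and of oligodendrocytes (8 of 9), with the same counts for both viruses. Not every list was depleted. In control mice endothelial markers (8 genes) summed to a mean of 105 CPM in input and 223 CPM in IP. The list did not move as 1, since Ly6c1 and Cdh5 held 0 reads in control IP, and Cldn5 in PMCA IP. Of the 2 endothelial markers tested, 1 was called higher in control IP and 1 lower. Mean sums went from 83.0 to 130 CPM for mural cells and fibroblasts, and from 14.8 to 42.7 CPM for ependymal cells. Microglial markers, 11 genes, moved with the treatment: their summed level was 137 to 353 CPM in control IP and 356 to 1231 CPM in PMCA IP, and 580 to 994 CPM in control input and 812 to 2087 CPM in PMCA input. Summed markers were 103 to 157 CPM in control IP and 129 to 193 CPM in PMCA IP for mural cells and fibroblasts (8 genes listed, with Kcnj8 and Dcn at 0 reads in both), 32.0 to 62.1 against 67.7 to 142 CPM for ependymal cells (3 genes listed), and 76.2 ± 10.5 against 105 ± 31.1 CPM (mean ± SD, n = 4) for oligodendrocyte precursors (7 genes).

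Sulf1 lies on chromosome 1 (12692197 to 12861192, GRCm38) and Sulf2 on chromosome 2 (166073899 to 166155683), so they are separate loci. Sulf1 stood higher in the IP of every PMCA mouse than in the IP of any control mouse. In control IP it measured 5.10, 4.38, 3.97 and 4.98 log2 CPM in Y481, Y482, Y483 and Y485, from 20, 9, 7 and 12 reads. In PMCA IP it measured 6.61, 5.42, 6.73 and 5.95 log2 CPM in Y486, Y487, Y489 and Y490, from 61, 20, 42 and 19 reads. The lowest PMCA library, Y487, stood just above the highest control library, Y481, while Y486 and Y489 were far above it. The group means were 4.61 ± 0.53 and 6.18 ± 0.61 log2 CPM (SD, n = 4 each), a difference of 1.57 (SE 0.34) or 2.96-fold, on the log2 CPM scale with the deposited prior of 0.25 reads, which is used throughout. Leaving out each mouse in turn gave differences between 1.36 and 1.82.

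Sulf2 behaved alike. Its control IP libraries measured 5.90, 4.52, 5.04 and 5.48 log2 CPM (35, 10, 15 and 17 reads) in the same mouse order. Its PMCA IP libraries measured 7.14, 6.67, 6.76 and 6.83 log2 CPM (88, 48, 43 and 35 reads). All 4 PMCA libraries lay above all control libraries and close to one another, with an SD of 0.20 against 0.59 among the controls. The means were 5.24 and 6.85 log2 CPM, a difference of 1.61 (SE 0.27) or 3.06-fold, and between 1.37 and 1.83 with any mouse left out. That contrast chose the set, so no test of the 9 genes in IP is given.

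In whole striatal input the PMCA difference was smaller for both sulfatases, and that of Sulf2, the sulfatase that could be tested there, did not pass. Sulf2 in control input measured 5.18, 5.41, 6.55 and 5.05 log2 CPM (8, 10, 36 and 12 reads), and in PMCA input 6.56, 6.29, 6.80 and 6.12 log2 CPM (26, 26, 36 and 32 reads). A single control library, Y483, reached into the PMCA range, and the other control libraries lay below it. The difference was 0.90 (SE 0.33, 95% interval 0.21 to 1.58; limma adjusted p = 0.9996 over 5895 genes). Sulf1 in control input measured 4.21, 4.43, 4.72 and 4.64 log2 CPM (4, 5, 10 and 9 reads), and in PMCA input 5.20, 5.68, 4.66 and 4.33 log2 CPM (10, 17, 8 and 9 reads). These ranges overlapped, and Sulf1 had too few input reads to enter the test. In bulk samples such as these, more cells of a type and more RNA per cell cannot be told apart.

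Ordered by mean level, Sulf1 ran from control input (4.50 log2 CPM) through control IP (4.61) and PMCA input (4.97) to PMCA IP (6.18). Sulf2 ran from control IP (5.24) through control input (5.55) and PMCA input (6.44) to PMCA IP (6.85). Each group overlapped in range with its neighbour in these orders, for both genes. The PMCA effect in IP exceeded that in input by 1.10 for Sulf1 (SE 0.56) and by 0.72 for Sulf2 (SE 0.45), values that contain the contrast used to choose the set.

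**Figure D1:**
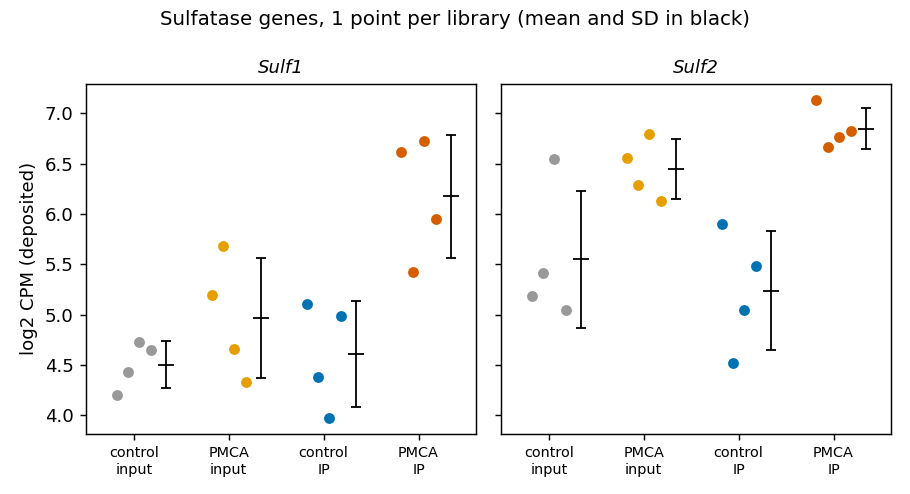
Level of Sulf1 and Sulf2 in log2 CPM (vertical axis) in each of the 16 libraries, by treatment and fraction; each point is 1 library, and black marks give the group mean and SD. In IP all PMCA points lie above all control points for both genes, while in input the ranges overlap.

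Neither sulfatase was concentrated on astrocyte ribosomes in control mice. Sulf1 was 0.11 log2 higher in IP than in input (SE 0.39, limma adjusted p = 0.840) and Sulf2 0.31 lower (SE 0.32, log2 difference -0.31, adjusted p = 0.434). With PMCA, Sulf1 was higher in IP by 1.21 (SE 0.39, adjusted p = 0.0122), and Sulf2 by 0.41 (SE 0.32, adjusted p = 0.309). The PMCA values rest on the IP libraries in which both genes had been seen to be high, so the call for Sulf1 is no independent one. It was also lost without Y486 (adjusted p = 0.0523), Y489 (0.109) or Y490 (0.0587).

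Microglial markers moved in the same direction as the sulfatases. Of the 6 tested in IP, 2 were called higher with PMCA, C1qa by 2.95 (SE 0.60) and C1qc by 3.05 (SE 0.57). Per mouse, their sum in IP was 353, 280, 200.5 and 137 CPM in the controls Y481, Y482, Y483 and Y485 and 679, 356, 1231 and 883 CPM in Y486, Y487, Y489 and Y490. For the summed microglial markers, for Sulf1 and for Sulf2 alike, Y487 was the lowest PMCA IP library and Y481 the highest control IP library. In each case Y487 lay above Y481, for the microglial sum only just. Microglial markers were themselves depleted by the precipitation, with 7 of 8 called lower in IP of control mice (median log2 difference -2.01) and 4 of 8 in PMCA mice. Of the ependymal markers, the 1 tested in IP, Foxj1, was also called higher with PMCA (1.17, SE 0.28, limma adjusted p = 0.0436), and the summed ependymal ranges given above did not overlap. Of 8 general neuronal markers tested in IP, 1 was called between treatments. It was Tubb3, lower with PMCA (log2 difference -1.19, SE 0.27, limma adjusted p = 0.0343). The part of these cell types in the sulfatase values was not tested.

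The 7 core proteins showed no shift like that of the sulfatases in PMCA IP. Their ranges overlapped between treatments in every case. How often ranges overlap over all genes was not counted, here or between fractions. Sdc3, a syndecan of neural tissue, was the core with the largest difference in the upward direction. It measured 8.33, 8.29, 7.93 and 8.07 log2 CPM in control IP and 8.45, 8.14, 8.60 and 8.88 in PMCA IP, and only Y487 lay within the control range. The difference was 0.36 (SE 0.15), or 1.29-fold, and fell to 0.24 without Y490.

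Sdc4, the syndecan of focal adhesions, leaned the other way. It measured 9.89, 10.16, 9.80 and 9.76 log2 CPM in control IP and 9.60, 9.83, 9.69 and 9.42 in PMCA IP, each from more than 200 reads, where Y487 again was the library that overlapped the controls. The log2 difference was -0.26 (SE 0.12). Sdc2, the remaining syndecan, differed by -0.01 (SE 0.16), with 7.42 to 7.98 log2 CPM in control IP and 7.40 to 7.82 in PMCA IP.

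Among the glypicans, Gpc5 was the most evenly measured. It stood at 9.01, 8.97, 8.96 and 8.92 log2 CPM in control IP and at 8.88, 9.10, 8.93 and 8.63 in PMCA IP. The control SD was 0.04 and the PMCA SD 0.19, with Y490 the low library. The log2 difference was -0.08 (SE 0.12). Gpc6, a close relative of Gpc4, measured 6.84 to 7.31 log2 CPM in control IP and 6.56 to 7.29 in PMCA IP, with a log2 difference of -0.12 (SE 0.19). Gpc1, a glypican also abundant in neurons, measured 4.23 to 4.95 and 4.18 to 5.60 log2 CPM, a difference of 0.33 (SE 0.39).

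Gpc4, the synapse-promoting glypican of astrocytes, had the widest spread. In control IP it measured 6.02, 5.27, 3.97 and 3.76 log2 CPM from 38, 17, 7 and 5 reads. In PMCA IP it measured 5.28, 5.42, 4.37 and 4.72 log2 CPM from 24, 20, 8 and 8 reads. The controls alone spanned both the highest and the lowest values. The difference was 0.19 (SE 0.44), and it changed sign to -0.14 when Y485 was left out.

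**Figure D2:**
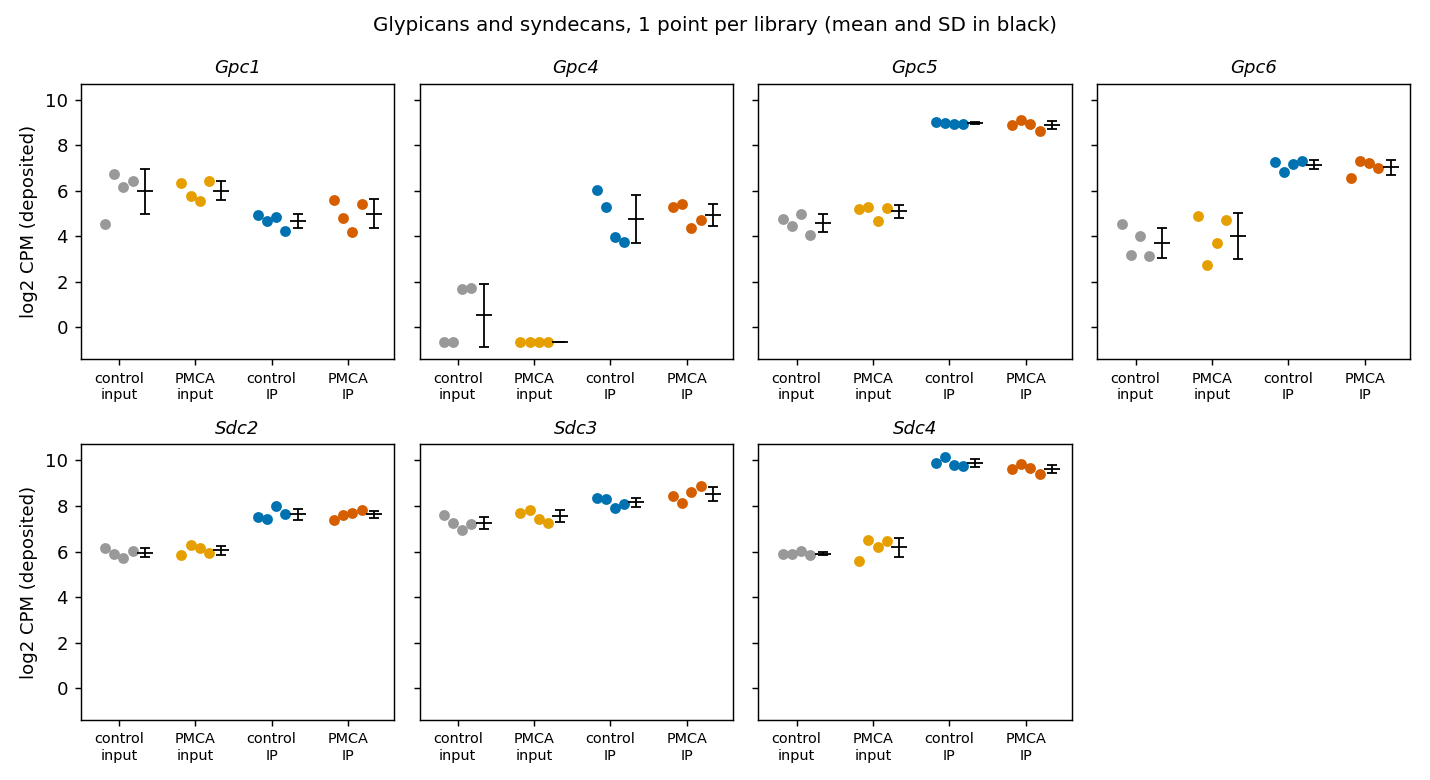
Level of the 7 core protein genes in log2 CPM (vertical axis) in each of the 16 libraries, by treatment and fraction; each point is 1 library, black marks give the group mean and SD, and -0.66 stands for 0 reads. Control and PMCA points overlap within IP for every core, while IP points lie above input points for all cores but Gpc1.

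In input, none of the 6 genes of the set with enough reads was called between treatments by limma, against 0.0339% of the 5895 genes tested. limma voom on the recovered reads also called 0, and a single gene, Sulf2, had an unadjusted p under 0.05. For the cores, the log2 differences with their 95% intervals were 0.53 for Gpc5 (-0.47 to 1.53), 0.30 for Sdc3 (-0.13 to 0.73), 0.27 for Sdc4 (-0.33 to 0.88), 0.11 for Sdc2 (-0.48 to 0.70) and 0.04 for Gpc1 (-0.77 to 0.86). Every one of these intervals holds 0, and that of Gpc5 also holds the Sulf2 difference, so a shift of that size in Gpc5 could not be told at this depth. Gpc6 (2 to 12 reads a library) and Gpc4 (0 or 1 read) were too low in input to be tested.

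**Figure D3:**
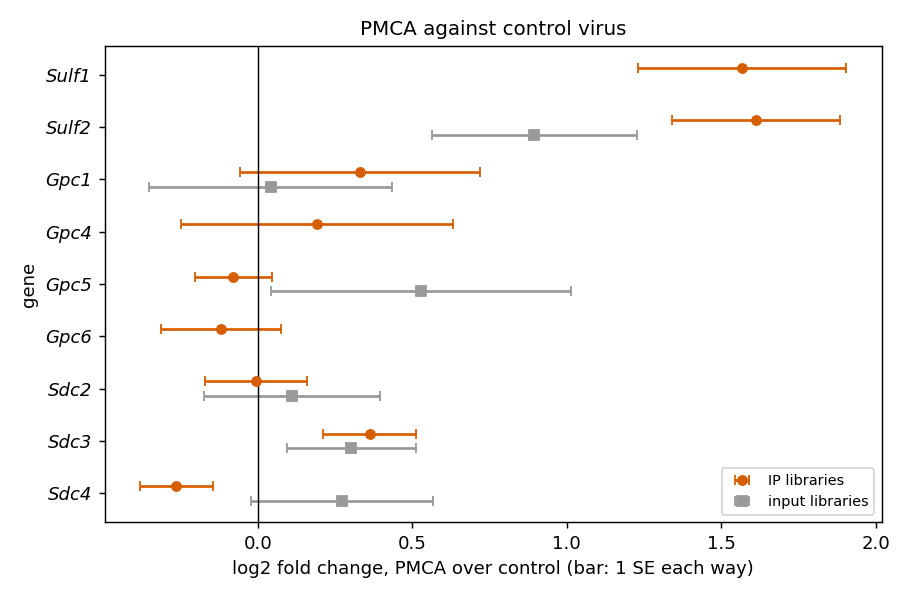
Log2 fold change of PMCA over control (horizontal axis) for each gene of the set in IP and in input; points are fitted values and bars reach 1 SE each way, with no input point for Sulf1, Gpc4 and Gpc6, which were not tested there. Sulf1 (1.57) and Sulf2 (1.61) lie to the right in IP, and the 7 cores lie between -0.26 and 0.36.

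Most cores were concentrated on astrocyte ribosomes. In control mice 6 of the 9 genes were called higher in IP than in input and 1 lower, where 27.3% of all 8091 genes tested were called higher and 26.1% lower. The 6 were Gpc4, Gpc5, Gpc6, Sdc2, Sdc3 and Sdc4, and the lower gene was Gpc1. In PMCA mice the same 6 and Sulf1 were called higher and Gpc1 lower, against 24.9% and 24.8% of all genes. The median log2 difference over the 9 genes was 1.68 in control and 1.57 in PMCA mice, beside 0.06 and 0.02 over all genes tested. Sulf1, Gpc4 and Gpc6 met the read minimum through their IP libraries, so a difference was built into their being tested.

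Gpc5 had the steepest gradient among the genes of the set with reads in every library. Input held 6, 5, 12 and 6 reads in control mice (4.77, 4.43, 4.98 and 4.08 log2 CPM), against 306, 224, 230 and 187 reads in IP. IP was higher in all 4 mice, by 4.40 on the log2 scale (SE 0.21, limma adjusted p = 1.45e-15), or 21.1-fold. In PMCA mice input held 10, 13, 8 and 17 reads (5.20, 5.30, 4.66 and 5.22 log2 CPM) against 296, 260, 194 and 123 in IP, a difference of 3.79 (SE 0.21, adjusted p = 3.75e-14) or 13.8-fold.

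Sdc4 came close to that gradient. Control input measured 5.87, 5.89, 6.03 and 5.85 log2 CPM (13 to 25 reads), below the lowest IP library by more than 3 log2 units. The difference was 3.99 in control mice (SE 0.18, limma adjusted p = 3.35e-16) and 3.46 in PMCA mice (SE 0.18, adjusted p = 7.00e-15), where input measured 5.57, 6.50, 6.22 and 6.44. For both Gpc5 and Sdc4 the gradient was smaller in PMCA than in control mice, by 0.61 (log2 difference -0.61, SE 0.30) and 0.54 (-0.54, SE 0.25). These differences contain the IP contrast used to choose the set and stand here without a test.

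Gpc6 was higher in IP by 3.44 in control (SE 0.40, limma adjusted p = 5.26e-08) and by 3.02 in PMCA mice (SE 0.40, adjusted p = 5.35e-07). Its input libraries measured 4.52, 3.17, 4.01 and 3.13 log2 CPM in control and 4.88, 2.72, 3.69 and 4.73 in PMCA mice, all below every IP library. Gpc4 had almost no input reads, with 0, 0, 1 and 1 in control and 0 in every PMCA library. Summed over a group, control mice had 67 IP reads and 2 input reads, a depth-scaled ratio of 21.6 (95% exact counting interval 5.75 to 182). PMCA mice had 60 IP reads and 0 input reads, so Gpc4 was at least 15.5-fold higher in IP, taking a floor of 3 reads over the group. limma called Gpc4 in both treatments (adjusted p = 8.99e-04 in control and 4.29e-05 in PMCA mice). Gpc4 met the read minimum through the IP libraries of Y481, Y482, Y486 and Y487, and was not tested without any of these mice.

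Sdc2 and Sdc3 had shallower gradients. Sdc2 was higher in IP by 1.68 in control mice (SE 0.20, limma adjusted p = 7.38e-08) and 1.57 in PMCA mice (adjusted p = 2.85e-07), with input at 6.17, 5.89, 5.71 and 6.04 log2 CPM and 5.87, 6.29, 6.16 and 5.93. Sdc3 was higher by 0.91 (SE 0.18, adjusted p = 1.48e-04) and 0.97 (adjusted p = 7.98e-05), with input at 7.59, 7.25, 6.93 and 7.22 in control and 7.69, 7.83, 7.43 and 7.25 in PMCA mice. No IP library overlapped an input library of the same treatment for either gene.

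Gpc1 ran opposite to the other glypicans. Control input measured 4.52, 6.72, 6.19 and 6.45 log2 CPM (5, 25, 28 and 32 reads) and control IP 4.95, 4.66, 4.84 and 4.23 (18, 11, 13 and 7 reads). Input was higher in 3 of the 4 control mice, and Y481 was the exception. The log2 difference of IP from input was -1.30 in control (SE 0.41, limma adjusted p = 0.00926) and -1.01 in PMCA mice (SE 0.41, adjusted p = 0.0432), where input measured 6.32, 5.76, 5.55 and 6.41 and IP 5.60, 4.81, 4.18 and 5.41. The control call was lost without Y482 (adjusted p = 0.0737) or Y485 (0.0885), and the PMCA call without any of Y483, Y486, Y487, Y489 and Y490 (adjusted p = 0.0547 to 0.115).

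**Figure D4:**
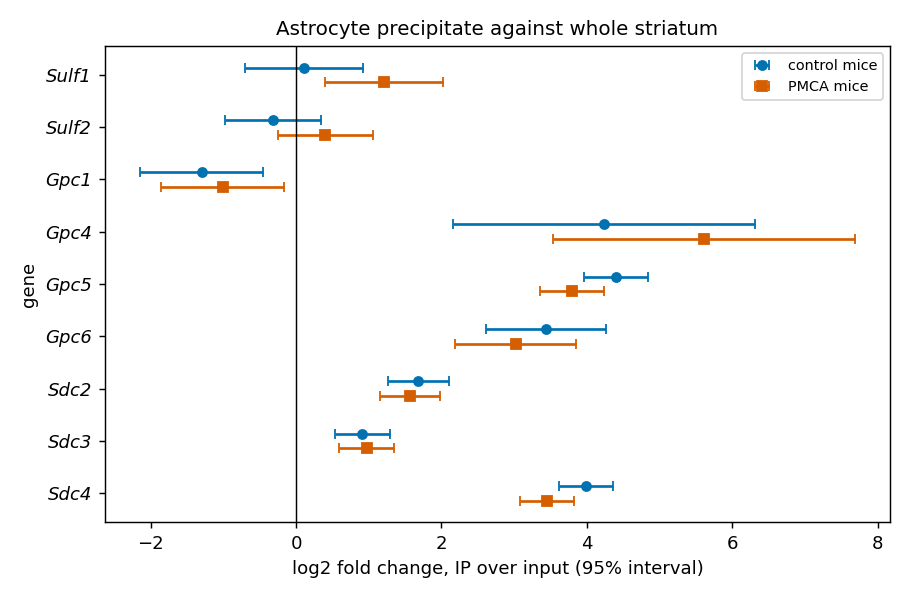
Log2 fold change of IP over input (horizontal axis) for each gene of the set in control and in PMCA mice; points are fitted values and bars are 95% intervals. Gpc5, Gpc4, Sdc4 and Gpc6 lie above 3, Sdc2 and Sdc3 between 0.91 and 1.68, and Gpc1 below 0; the Gpc4 point depends on the prior count because its input holds 0 or 1 read.

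Around the 9 genes, 142 further genes of heparan sulfate metabolism and signalling were grouped by role, of which 72 could be tested in IP and 59 in input. limma called none of these between treatments in either fraction, where 0.507% and 0.0339% of all genes tested were called, so a count of 0 is near the background for lists of this size. At an unadjusted p under 0.05 stood 14 of 72 in IP (12.9% of all genes tested) and 2 of 59 in input (212 of all 5895). The smallest p in input belonged to Apoe, a lipoprotein that binds heparan sulfate, with a difference of 0.35 (SE 0.14, limma adjusted p = 0.9996), and to Spred2, an inhibitor of the FGF response, with a log2 difference of -0.60 (SE 0.28, adjusted p = 0.9996). Over all these genes the median log2 difference was -0.05 in IP and -0.0075 in input. Each role held 1 to 15 tested genes in IP, too few for a count of 0 to say anything about a single role, the FGF response (7 genes) and the Wnt response (3 genes) included. The difference of the PMCA effect between fractions was called by limma in 0 of 83 pathway genes, 3 of which had an unadjusted p under 0.05 (5.28% of all genes).

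Between fractions, 40 of 83 tested pathway genes were called higher in IP and 20 lower in control mice (48.2% and 24.1%, beside 27.3% and 26.1% of all genes tested). In PMCA mice the counts were 34 and 18 (41.0% and 21.7%, beside 24.9% and 24.8%). The lower shares lay near those of all genes, several roles went both ways, and no test compared the roles. Genes with few reads in one fraction met the read minimum through the other, as noted for Gpc4. Of the enzymes that modify the chain, chiefly by placing sulfate, 6 of 8 tested were called lower in control IP and 1 higher. The 6-O-sulfotransferases Hs6st3 and Hs6st2, which add the group that Sulf1 and Sulf2 remove, had log2 differences of -3.87 (SE 0.78, limma adjusted p = 1.38e-04, 48 input and 7 IP reads) and -3.68 (SE 0.46, adjusted p = 1.43e-07, 106 and 12 reads). Hs2st1, the 2-O-sulfotransferase, was higher by 0.76 (SE 0.30, adjusted p = 0.0331), a call lost when any of Y481, Y482 and Y483 was left out. Scaling by library totals without trimmed-mean factors also lost it (limma adjusted p = 0.1265).

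Further genes start and feed the chain. Of 10 linkage and precursor genes, 6 were called higher in control IP and 1 lower, beside 27.3% and 26.1% of all genes tested. Papss2, which makes the sulfate donor, was higher by 5.64 (SE 0.89, limma adjusted p = 1.20e-04, 13 input and 540 IP reads). Slc35b2, the Golgi transporter of that donor, was higher by 2.62 (SE 0.99, adjusted p = 0.0284), and this call was lost without Y481, Y482 or Y485 (1.53 without Y481). Uxs1, which makes UDP-xylose, had a log2 difference of -1.19 (adjusted p = 0.0483), a weak call that was lost with the mouse as a block (0.0649), with no filter (0.0593), with voom (0.101) and without any of Y482, Y485, Y486, Y487, Y489 and Y490 (0.0605 to 0.25). Without Y485 its difference was -0.79. Extl3, which begins the heparan sulfate chain on the linker, was the polymerisation gene called, higher by 1.21 (SE 0.21, adjusted p = 1.81e-05). Sumf1, which activates sulfatases including Sulf1 and Sulf2, was higher by 1.34 (SE 0.49, adjusted p = 0.0229), lost without Y481, Y483 or Y485. Scaling by library totals also lost the Sumf1 call (limma adjusted p = 0.0531).

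Of 7 degradation and shedding genes, 3 were called higher in control IP and 2 lower, beside 27.3% and 26.1% of all genes tested. Mmp14, a membrane protease that can shed syndecans, was higher by 3.79 (SE 0.67, 10 input and 138 IP reads) and the lysosomal glucuronidase Gusb by 2.11 (SE 0.65, 8 and 50 reads). The lysosomal sulfatases Arsg and Ids had log2 differences of -2.70 (SE 0.79) and -2.18 (SE 0.18). All 4 passed an adjusted p under 0.05, the largest being 0.00793 for Gusb (limma).

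Of 30 ligands that heparan sulfate binds, 24 were listed and 12 had enough reads to be tested, and 9 of these 12 were called higher in control IP and 1 lower (27.3% and 26.1% of all genes). Several, Mdk, Wnt7b and Chrdl1 among them, met the read minimum through IP, so their difference was built into being tested. Midkine (Mdk) was called higher (limma adjusted p = 2.19e-08) from 2 input and 187 IP reads, a depth-scaled ratio of 60.3 (95% exact counting interval 16.5 to 502), and its fitted log2 difference of 5.95 depends on the prior count. Wnt7b was higher by 3.97 (SE 0.41, adjusted p = 4.77e-09), while the axon guidance ligand Slit3 had a log2 difference of -2.87 (SE 0.44, adjusted p = 3.43e-06). Of 18 receptors and partners, 9 were called higher and 6 lower. Fgfrl1 was higher by 4.50 (SE 0.68, 7 input and 198 IP reads) and Fgfr3, also among the astrocyte markers, by 4.22 (SE 0.19). The synaptic partners Lrrtm4 and Lrrtm3 bind heparan sulfate on neurexins and glypicans. They had log2 differences of -4.00 (SE 0.71, 79 input and 11 IP reads) and -3.22 (SE 0.44, 148 and 32 reads).

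Among 4 further heparan sulfate cores, Nrp1 was higher in control IP by 1.65 (SE 0.36, limma adjusted p = 4.12e-04) and Nrxn2 by 0.61 (SE 0.15, adjusted p = 0.00119), and Nrxn3 had a log2 difference of -2.67 (SE 0.16, adjusted p = 1.39e-13). Among 8 chondroitin sulfate cores, 4 were called higher and 3 lower, beside 27.3% and 26.1% of all genes tested. Bcan stood at 3.76 (SE 0.22) and Ptprz1 at 3.68 (SE 0.15), against Spock1 at -4.44 (SE 0.38) and Spock3 at -3.82 (SE 0.21). Of the response genes, Spred1 (1.16, SE 0.15) and Etv5 (0.82, SE 0.28) of the FGF pathway and Apcdd1 (2.40, SE 0.73) and Znrf3 (1.84, SE 0.36) of the Wnt pathway were called higher in control IP. The Apcdd1 difference rests on 14 input and 64 IP reads and was 1.29 without Y481. The Etv5 call was lost without Y482 (limma adjusted p = 0.0513) or Y483 (0.177), where its difference was 0.52. Scaling by library totals also lost the Etv5 call (0.0667).

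Across the 8 IP libraries Sulf1 and Sulf2 varied together, with a Pearson r of 0.90 on the log2 CPM scale, a value that the shared shift between treatments carries in part. After each group's mean was taken off, r was 0.61. Among 4561 genes with a mean of at least 20 IP reads, the patterns most like Sulf1 were those of Usp53 (r = 0.98), Ubxn1 (0.96) and Wars (0.95), and those most like Sulf2 were Peg3 (0.97), Mon1b (0.97) and 9430020K01Rik (0.96). Sulf2 ranked 11 in likeness to Sulf1, and Sulf1 ranked 12 in likeness to Sulf2. Of the cores, Sdc3 had r = 0.72 with Sulf1 and 0.61 with Sulf2, and Sdc4 -0.64 and -0.76. With the group means taken off these became 0.44 and 0.11 for Sdc3 and -0.23 and -0.53 for Sdc4. These values are a description over 8 libraries that differ in depth and treatment, with no test.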

How the data were processed

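The deposited values were log2 CPM per gene and library, and the submitters' processing notes name mm10, STAR, HTSeq, edgeR and limma. The sources used here give no versions and no strand setting. Whole reads were recovered from the log2 values (prior of 0.25 reads; all values whole within 0.01 reads). They cover counting error only, since no molecular identifiers were used. Groups came from the labels, and p-values measure the spread between 4 mice a group.

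limma 3.58.1 (R 4.3.3, statmod 1.5.0) was fitted to the log2 values of all tested genes with a variance trend and robust moderation. A gene was tested with the equivalent of 10 reads in at least 4 libraries and 15 reads in all. It was called at a Benjamini-Hochberg adjusted p under 0.05. Treatment was compared within IP and within input, and IP with input in 1 model of all 16 libraries. The deposited unit is log2, so limma on those values was kept as the main test, with voom on the recovered reads as an alternative. It was checked on simulated data. Alternatives changed the prior count, filter, scaling, moderation, model, block and mice included. Both fractions come from the same mouse per the labels. Deviations of a mouse's libraries correlated at -0.14 to 0.12 over 2741 genes.

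The genes named were the 9 of the set, every pathway gene called between treatments, the 2 with the smallest p in input, the 2 most enriched and 2 most depleted called genes of each role in control mice, and the 3 most like each sulfatase. The set and lists were chosen with earlier results of these data known, and 2 listed genes are not reported here. Gene names were matched to RefSeq (GRCm38.p6), and motif searches used Python 3.11.15.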

Additional observations from a re-analysis of the deposited data

Results flagged for a closer look

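Gpc5 in the input of PMCA mouse Y489 stood apart from its group, at 4.66 log2 CPM against 5.20 to 5.30 in the other PMCA input libraries. It rests on 8 reads. Its gap to the nearest library, divided by the range of the group, exceeded Dixon's 95% critical value for 4 samples. Of 36 groups of 4 looked at, this was the 1 past that value, and chance alone passes about 1 in 20.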

How the results depend on the processing

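Genes called between treatments in IP numbered 36, but 23 with limma voom, 15 with all 16 libraries in the model, and 14 to 50 when each mouse was left out. In input 2 were called, against 1 with a filter at 20 reads, 1 with median-of-ratios scaling, 1 with voom, 4 without robust moderation, 8 with all 16 libraries and 0 to 10 with each mouse left out. With each mouse left out, 5 to 6 genes of the set were called higher in IP in control mice, and 5 to 7 in PMCA mice. The 1 gene of the set called lower in IP than in input, Gpc1, was 0 to 1 with each mouse left out in control mice, and 0 to 1 in PMCA mice, where it was 0 without a filter. Gpc4 was not tested without Y481, Y482, Y486 or Y487, so the counts of the set called higher lacked it there. The cause of the other changes was not tested. Gpc1 in input turned from 0.04 to -0.036 with voom, and lay between -0.44 and 0.29 with each mouse left out. The Sulf1 difference of IP from input in control mice turned from 0.11 to -0.10 with library totals and ranged from -0.16 to 0.39 over the mice left out. That of Sulf2 ranged from -0.65 to 0.086. Pairing the fractions by mouse as a replicate block gave 4313 genes called in control and 4003 in PMCA mice, against 4319 and 4019, and among the genes named changed the call of Uxs1 alone. Library totals without trimmed-mean factors moved the median of all genes by -0.21 in control and -0.26 in PMCA mice, and the share of higher calls in PMCA mice from 50.1% to 37.7%. With that scaling the calls of Hs2st1, Sumf1 and Etv5 in control mice were lost. Depth limits Gpc4, Gpc6 and Sulf1 in input, where libraries held 0 to 17 reads of each.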
